A study of Homo sapiens with 42 samples.

Results

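Adding NSD2 to Reh leukaemia cells was followed by a rise of 65 genes and a fall of 33 among 15972 tested, or of 338 and 261 when same-numbered libraries were treated as pairs. The junction scaffold MAGI1 stood 20.0-fold above its level with the empty vector and the pyrimidine-degrading enzyme DPYD 12.9-fold. The log2 fold change of MAGI1 was 4.32, but 3.79 without empty-vector replicate 1 and 5.21 (37.0-fold) without empty-vector replicate 2. The desmosomal cadherin DSC3 and the ubiquitin ligase RNF182 lay 2.86-fold and 2.88-fold below it. The comparison takes 6 of the 42 RNA sequencing libraries of a study on NSD2 in B-cell acute lymphoblastic leukaemia (B-ALL), namely those of the established line Reh, chosen by their labels. Of these, 2 came from cells with a vector for wild-type NSD2 (WT), 2 from cells with a vector for NSD2 carrying the E1099K substitution (EK), and 2 from cells with the empty vector (EV). WT and EK are pooled here as 4 libraries with added NSD2 and set against the 2 EV libraries, with no drug or other treatment named for any of them. All cells were kept in culture and not used beyond passage 20. The promoter of the vectors, and whether the engineered cells were clones or mixed populations, are not given in the labels. Replicates are numbered, but no label says that they are separate cultures, and the p-values therefore reflect the variation among these libraries, which may be technical.

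NSD2 is a methyltransferase that places methyl groups on lysine 36 of histone H3, mainly as the dimethyl mark, which lies over gene bodies and between genes in open chromatin. That mark hinders the Polycomb complex PRC2 from methylating lysine 27 on the same histone tail, a modification that accompanies gene silencing. E1099K lies in the catalytic SET domain and raises the activity of the enzyme, and it recurs in childhood B-ALL. Reh carries the ETV6-RUNX1 fusion and an early B-cell phenotype.

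The libraries held 23688482 to 27244031 reads assigned to genes, and the transcripts encoded by mitochondrial DNA took 0.246% to 0.304% of them. Levels are given as CPM (reads scaled to a common library total) with TMM factors, with means ± SD over 4 libraries with added NSD2 and 2 with EV. Each gene was tested with edgeR's quasi-likelihood F-test, and a gene is called when its p adjusted by the Benjamini-Hochberg method over all 15972 genes was under 0.05. The B-lymphoid identity of the line was visible in its markers, whose summed level ran from 13019 to 14642 CPM with added NSD2 and from 12765 to 14163 CPM with EV. RAG1, which cuts DNA in antigen receptor rearrangement, averaged 5181 ± 791 CPM with added NSD2 and 4973 ± 974 CPM with EV, and VPREB1, part of the surrogate light chain, was at 0 in all 6 libraries. Summed T and NK cell markers stood at 15.8 to 18.3 CPM with added NSD2 and 13.4 to 14.0 CPM with EV, with CD3D, CD2 and CD8B at 0. Myeloid markers summed to 26.1 to 32.1 CPM with added NSD2 and 28.5 to 34.8 CPM with EV, with CEBPA, ELANE, S100A8 and S100A9 at 0. Erythroid and megakaryocytic markers summed to 267 to 404 CPM with added NSD2 and 250 to 289 CPM with EV, nearly all of it TFRC, which dividing cells of any lineage express, with HBA1, HBA2, HBG1, GYPB, GATA1, PF4 and PPBP at 0. Stromal and epithelial markers summed to 841 to 1026 CPM with added NSD2 and 879 to 897 CPM with EV, mostly VIM, with KRT19 at 0. No marker of any of these lists was called, while with same-numbered libraries as pairs NKG7 (0.93 on the log2 scale) was called higher and MPO (-0.74) lower. A bulk library cannot tell fewer cells of a kind from less RNA per cell, and this holds for every difference given here.

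NSD2 itself, listed under its older symbol WHSC1, was at 1747 and 1637 CPM in the WT libraries, 1831 and 1533 CPM in the EK libraries, and 576 and 581 CPM in the EV libraries. All 4 libraries with added NSD2 lay above both EV libraries, as the labels say. The mean was 1687 ± 130 CPM with added NSD2 and 578 ± 2.92 CPM with EV. The log2 fold change was 1.54 ± 0.10 (SE worked back from the F statistic, adjusted p = 0.00125), or 2.92-fold. WT and EK stood alike above EV, at 1.55 and 1.54 on the log2 scale. Counts per gene do not separate vector transcripts from those of the cells' own locus.

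In all, 98 of 15972 genes (0.614%) were called, 65 higher (0.407%) and 33 lower (0.207%), and 1124 genes (7.04%) had an unadjusted p under 0.05. Same-numbered libraries deviated together across the arms, and with the replicate number as a block in the fit (the replicate block) 599 genes (3.75%) were called, 338 higher (2.12%) and 261 lower (1.63%), with all 98 among them. Calls below are without the block unless it is named. In all 98 the 4 libraries with added NSD2 did not overlap the 2 EV libraries, which held for 14.8% of the genes tested. At least 2-fold changes were seen in 56 genes that rose and 20 that fell, and at least 4-fold changes in 39 and 4. The median log2 fold change was 2.21 over the genes that rose and -1.21 over those that fell, beside 0.0068 over all genes tested, of which 52.1% had a positive value.

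Of the 65 that rose, 31 averaged under 1 CPM with EV, against 2 of the 33 that fell and 17.3% of all genes tested. Levels of at least 10 CPM with EV were seen in 11 of the 65, 22 of the 33 and 59.8% of all genes. Genes near 0 with EV could pass the filter on low counts only through the libraries with added NSD2, so these shares are given as a description. The span of called genes on the chromosome had a median of 91.1 kb among 64 that rose and 77.9 kb among 33 that fell. Over 14448 tested genes with a RefSeq span, coding or not, it was 25.3 kb, a difference that was not tested. Protein-coding genes made up 59 of the 65 and all 33. Their share over all genes tested was not worked out, so these counts are a description only.

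**Figure D1:**
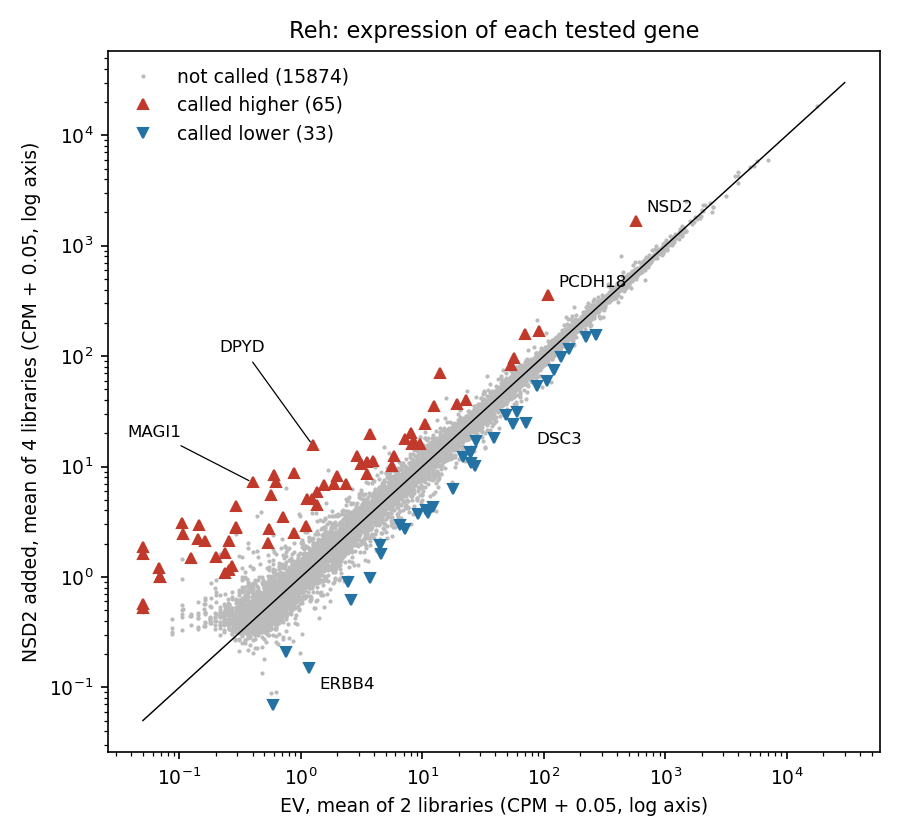
Mean level of each tested gene with added NSD2 (4 libraries, vertical axis) against EV (2 libraries, horizontal axis), both as CPM + 0.05 on log axes, with the line of equality. The 65 genes called higher lie above the line mostly at low EV levels. The 33 called lower lie below it, 22 of them at 10 CPM or more with EV.

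To show the sequence at the start of 4 genes whose calls held whichever library was left out, the windows from 250 bases before to 50 bases after the annotated start are printed for MAGI1 and DPYD, which rose, and for RNF182 and DSC3, which fell. They are RefSeq sequences on GRCh38.p14, in the direction of transcription, with every CG dinucleotide in capitals. MAGI1 lies on the minus strand at chr3:66038869-66039168, DPYD on the minus strand at chr1:97920985-97921284, RNF182 on the plus strand at chr6:13924196-13924495 and DSC3 on the minus strand at chr18:31042693-31042992.
MAGI1: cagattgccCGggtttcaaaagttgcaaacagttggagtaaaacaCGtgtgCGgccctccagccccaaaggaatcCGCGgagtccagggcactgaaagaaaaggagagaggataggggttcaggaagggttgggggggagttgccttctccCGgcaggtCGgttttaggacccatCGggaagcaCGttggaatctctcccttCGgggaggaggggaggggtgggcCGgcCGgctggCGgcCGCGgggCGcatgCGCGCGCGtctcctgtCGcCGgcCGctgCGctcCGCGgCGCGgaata
DPYD: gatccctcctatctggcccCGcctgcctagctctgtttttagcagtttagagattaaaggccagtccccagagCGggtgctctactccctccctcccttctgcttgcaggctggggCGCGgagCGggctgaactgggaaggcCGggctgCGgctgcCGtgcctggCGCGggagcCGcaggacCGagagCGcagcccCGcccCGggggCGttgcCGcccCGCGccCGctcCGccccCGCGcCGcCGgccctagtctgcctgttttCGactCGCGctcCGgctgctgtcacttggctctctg
RNF182: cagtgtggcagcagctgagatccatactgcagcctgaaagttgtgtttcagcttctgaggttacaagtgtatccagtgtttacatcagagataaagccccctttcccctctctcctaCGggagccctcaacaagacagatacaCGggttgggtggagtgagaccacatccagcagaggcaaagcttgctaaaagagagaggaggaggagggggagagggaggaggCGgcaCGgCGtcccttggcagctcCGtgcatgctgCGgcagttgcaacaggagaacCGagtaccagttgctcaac
DSC3: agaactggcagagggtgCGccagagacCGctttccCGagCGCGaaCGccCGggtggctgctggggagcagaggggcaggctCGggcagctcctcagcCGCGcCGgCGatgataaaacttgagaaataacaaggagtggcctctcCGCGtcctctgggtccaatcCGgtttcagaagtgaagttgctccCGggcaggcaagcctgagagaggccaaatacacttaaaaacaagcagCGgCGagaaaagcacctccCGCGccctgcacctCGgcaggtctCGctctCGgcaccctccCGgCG
The windows of MAGI1, DPYD and DSC3 hold 28, 29 and 25 CG, near the median of 26 over all tested genes with a window. That of RNF182 holds 8. The GC content is 64.7% in MAGI1, 70.3% in DPYD, 55.3% in RNF182 and 63.3% in DSC3. The letters TATAAA were searched on both strands and occur in none of the 4. A window was matched for 43 of the 65 genes that rose and 27 of the 33 that fell. The median window held 27 CG and 67.3% GC in the genes that rose, 21 CG and 60.7% GC in those that fell, and 26 CG and 65.0% GC over 10924 tested genes. Windows with at most 5 CG made up 9.30%, 18.5% and 7.80% of these groups, in that order, and windows with TATAAA 9.30%, 7.41% and 5.74%. These shares were not tested.

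The named genes that rose included proteins of the cell surface and its junctions, which were not tested as a group. MAGI1, a scaffold with PDZ domains at tight and adherens junctions, was at 6.35 and 8.20 CPM in WT, 6.47 and 7.46 CPM in EK, and 0.188 and 0.511 CPM in EV. Its 4 values with added NSD2 lay within a narrow band far above EV, a log2 fold change of 4.32 ± 0.35 (adjusted p = 0.00278). The size of that change leaned on the EV libraries, at 3.79 without EV replicate 1 and 5.21 without EV replicate 2. ROBO1, the receptor through which SLIT proteins repel growing axons, was at 19.6 and 22.6 CPM in WT, 18.4 and 17.7 CPM in EK, and 4.21 and 3.11 CPM in EV. It rose 5.35-fold, by 2.42 ± 0.18 (adjusted p = 0.00221). PCDH18, a protocadherin, was far more abundant, at 343 and 362 CPM in WT, 385 and 329 CPM in EK, and 106 and 110 CPM in EV. The groups were widely separated, by 1.71 ± 0.10 (adjusted p = 0.000767). PTPRU, a receptor tyrosine phosphatase, was at 6.17 and 7.99 CPM in WT, 5.45 and 7.39 CPM in EK, and 1.05 and 1.94 CPM in EV, an increase of 2.17 ± 0.29 (adjusted p = 0.0235). MAGI1, ROBO1 and PCDH18 were called whichever library was left out. PTPRU lost its call without EV replicate 1 (adjusted p = 0.147), EK replicate 2 (0.0909), WT replicate 1 (0.093) or WT replicate 2 (0.0508).

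Transcription factors that rose, which were not tested as a group, included ZNF536, SOHLH2 and ETV5. ZNF536, a zinc finger repressor of neural genes, was at 7.57 and 7.27 CPM in WT, 3.64 and 3.27 CPM in EK, and 0.451 and 0.585 CPM in EV. Here WT stood above EK and both above EV, and the pooled change was 3.38 ± 0.50 (adjusted p = 0.0314). SOHLH2, a helix-loop-helix factor of germ cells, was at 4.17 and 5.34 CPM in WT, 8.16 and 5.75 CPM in EK, and 1.28 and 1.35 CPM in EV, higher by 2.15 ± 0.31 (adjusted p = 0.0287). ETV5, an ETS factor induced by ERK signalling, was at 30.4 and 38.2 CPM in WT, 29.8 and 42.3 CPM in EK, and 13.6 and 11.3 CPM in EV, higher by 1.50 ± 0.18 (adjusted p = 0.0144). The calls of ZNF536 (0.284), SOHLH2 (0.263) and ETV5 (0.0851) were lost without EV replicate 1, and likewise without EV replicate 2 (0.215 for ZNF536, 0.215 for SOHLH2 and 0.165 for ETV5). ZNF536 was also lost without WT replicate 1 (0.0936) or WT replicate 2 (0.0551), and SOHLH2 without EK replicate 2 (0.0973) or WT replicate 2 (0.0571).

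Other transcription factors among the 65, chosen here after their values were seen, were ZNF521, FOXP2 and EBF3. ZNF521, a zinc finger protein of early blood progenitors that antagonises EBF1, averaged 2.88 ± 0.455 CPM with added NSD2 and 0.0940 ± 0.133 CPM with EV, where 1 EV library held none. FOXP2 averaged 2.09 ± 0.532 CPM with added NSD2 and 0.112 ± 0.0546 CPM with EV, and EBF3, a relative of the B-cell factor EBF1, averaged 1.98 ± 0.335 CPM with added NSD2 and 0.483 ± 0.167 CPM with EV. In contrast FOXP1, a forkhead factor needed for B-cell development, fell to 115 ± 3.35 CPM with added NSD2, against 160 ± 2.81 CPM with EV, a change of -0.47 ± 0.07 (adjusted p = 0.0396). ZNF521 lost its call without EK replicate 2 (0.0743) or WT replicate 1 (0.0767), and FOXP2 without EV replicate 1 (0.0733) or EV replicate 2 (0.113). EBF3 was called in none of the fits that left out 1 library, with adjusted p up to 0.351 without EV replicate 2 and as low as 0.0564 without EK replicate 1. FOXP1 was called only without EK replicate 1, with adjusted p = 0.337 and 0.407 without EV replicates 1 and 2, 0.13 without EK replicate 2, and 0.171 and 0.0991 without WT replicates 1 and 2.

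Among enzymes, DPYD, which carries out the first step in the breakdown of uracil and thymine and inactivates fluorouracil, was at 15.4 and 18.2 CPM in WT, 13.2 and 15.3 CPM in EK, and 1.01 and 1.39 CPM in EV. It rose by 3.68 ± 0.22 (adjusted p = 0.000767). LIG4, the ligase that joins broken DNA ends and seals coding joints in antigen receptor rearrangement, was at 149 and 177 CPM in WT, 159 and 153 CPM in EK, and 64.6 and 75.5 CPM in EV. Its increase was smaller, 1.19 ± 0.11 (adjusted p = 0.00452), from a level that was already substantial. DPYD was called in all 6 fits that left out 1 library, and LIG4 in all but the one without EV replicate 1 (adjusted p = 0.0565). CASP1, the protease that matures interleukin 1 beta, and TLR7, a sensor of single-stranded RNA, also rose, chosen with their values known. CASP1 averaged 6.87 ± 1.29 CPM with added NSD2 and 2.30 ± 0.518 CPM with EV (1.57 ± 0.25, adjusted p = 0.0414), and TLR7 averaged 17.6 ± 1.95 CPM with added NSD2 and 7.19 ± 1.90 CPM with EV (1.29 ± 0.19, adjusted p = 0.0305). CASP1 was called only without EK replicate 2, with adjusted p up to 0.351 without EV replicate 2 and as low as 0.0564 without EK replicate 1. TLR7 was called only without EK replicate 1, with adjusted p up to 0.211 without EV replicate 2 and as low as 0.0565 without EV replicate 1.

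PCNXL2 (PCNX2), a membrane protein of the pecanex family, was at 9.01 and 9.92 CPM in WT, 7.78 and 8.30 CPM in EK, and 0.940 and 0.731 CPM in EV, a 10.4-fold increase of 3.38 ± 0.21 (adjusted p = 0.000864). MB21D2 was at 6.57 and 7.23 CPM in WT, 7.78 and 6.95 CPM in EK, and 0.413 and 0.731 CPM in EV, higher by 3.63 ± 0.26 (adjusted p = 0.0015). Both were called in all 6 fits that left out 1 library. SCN8A, a voltage-gated sodium channel of neurons, was at 3.06 and 2.86 CPM in WT, 2.20 and 2.80 CPM in EK, and 0.263 and 0.219 CPM in EV, higher by 3.48 ± 0.30 (adjusted p = 0.00337) and likewise called in all 6 fits. The long noncoding RNA LINC01013 averaged 12.5 ± 2.73 CPM with added NSD2 and 2.85 ± 0.162 CPM with EV (2.13 ± 0.25, adjusted p = 0.0107), with calls lost without EV replicate 1 (0.108) or EV replicate 2 (0.13). FRG2C and FRG2B are near copies of each other, so reads can be assigned to either and their separate values are uncertain. FRG2C averaged 69.8 ± 7.66 CPM with added NSD2 and 14.0 ± 1.46 CPM with EV (2.32 ± 0.14, adjusted p = 0.000767). FRG2B averaged 5.04 ± 0.491 CPM with added NSD2 and 1.18 ± 0.0810 CPM with EV (2.08 ± 0.20, adjusted p = 0.00497), and lost its call without EV replicate 1 (0.0733) or EV replicate 2 (0.0588).

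**Figure D2:**
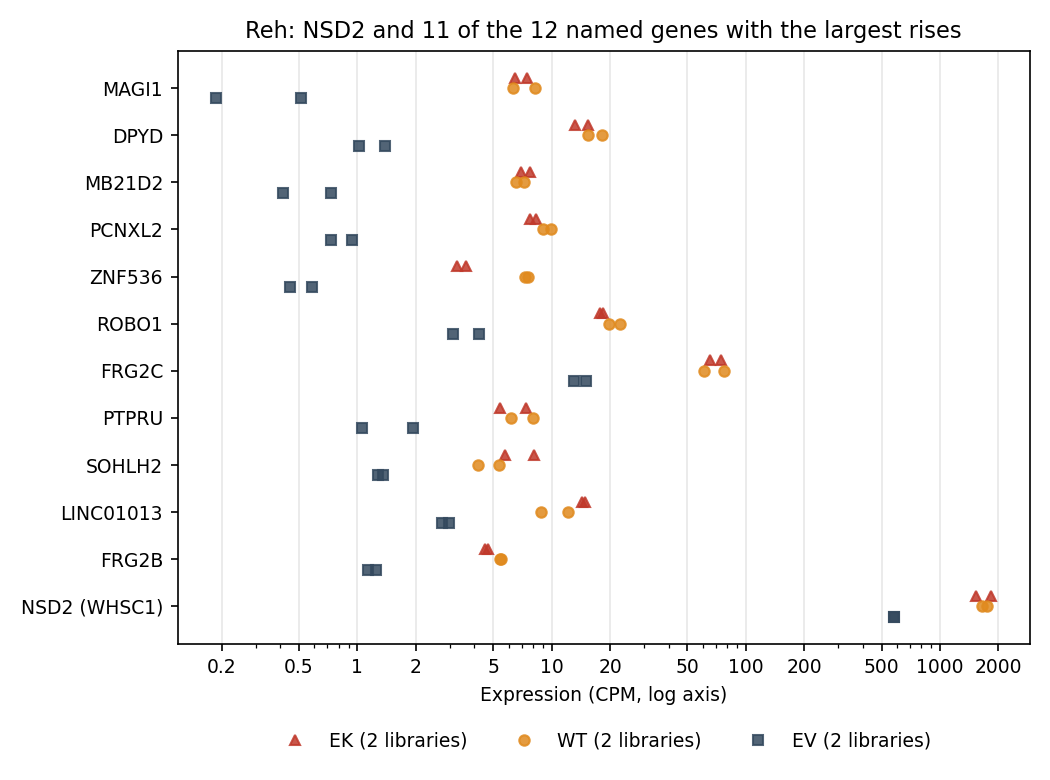
Level in each Reh library (CPM, log axis) of NSD2 and of 11 of the 12 genes that rose most among those the naming rule admits. Triangles are EK, circles WT and squares EV, with 2 libraries each, and in every gene the EV squares lie left of the other 4 points.

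For genes with 0 to 3 reads in the 2 EV libraries together, the fitted fold change depends on a constant added to the counts, so folds are given from summed reads. MMP16, a membrane-bound metalloprotease, had 159 reads in the 4 libraries with added NSD2 and 0 with EV, at least 28.0-fold higher against a floor of 3 reads over both EV libraries (0.0556 CPM). PLCXD3, with 53 reads with added NSD2 and 0 with EV, was at least 9.35-fold higher. PLXNA2, a plexin that receives semaphorin signals, had 246 reads with added NSD2 and 3 with EV, a ratio of 43.4 (95% exact interval 14.7 to 212, which covers counting error only). TSPAN12, a tetraspanin that associates with a Frizzled receptor, had 96 reads with added NSD2 and 1 with EV, a ratio of 50.8 (8.90 to 2027). DOCK3, an activator of the small GTPase Rac in neurons, chosen after its values were seen, had 311 reads with added NSD2 and 3 with EV, a ratio of 54.9 (18.6 to 267). DOCK3 was called in all 6 fits that left out 1 library. PLCXD3 was called in none of them, with adjusted p up to 0.263 (without EV replicate 1) and as low as 0.0612 (without WT replicate 2). MMP16 lost its call without WT replicate 1 (0.0997) or either EV replicate (0.129 without replicate 1, 0.138 without replicate 2), PLXNA2 without EV replicate 2 (0.052) or WT replicate 1 (0.0557), and TSPAN12 without EV replicate 1 (0.135), EV replicate 2 (0.213), EK replicate 2 (0.0939) or WT replicate 1 (0.103). Setting the 4 genes with no EV read at their bounds left the median of the genes that rose at 2.21.

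Of the 33 genes that fell (0.207% of all genes tested), 3 belong to the list of desmosomes and cell junctions. Of its 18 tested members MAGI1 rose, and the list median was -0.06. DSC3, a cadherin that links cells in desmosomes, was at 22.7 and 21.8 CPM in WT, 28.5 and 26.4 CPM in EK, and 74.3 and 67.9 CPM in EV. The highest value with added NSD2 was well under both EV values, and the log2 fold change was -1.52 ± 0.12 (adjusted p = 0.00278). PERP, a membrane protein of desmosomes and a target of p53 and p63, was at 10.7 and 11.6 CPM in WT, 10.5 and 10.4 CPM in EK, and 25.5 and 24.7 CPM in EV, a change of -1.22 ± 0.10 (adjusted p = 0.00337). DSG2, a further desmosomal cadherin, fell to 53.3 ± 2.65 CPM with added NSD2, against 87.2 ± 2.62 CPM with EV (-0.71 ± 0.08, adjusted p = 0.0107). DSC2, next to DSC3 on the chromosome, averaged 6.93 ± 0.403 CPM with added NSD2 and 11.1 ± 0.301 CPM with EV and did not pass (-0.68 ± 0.12, adjusted p = 0.0725), while it did with the replicate block (adjusted p = 0.00523). DSC3 and PERP were called in all 6 fits that left out 1 library. DSG2 lost its call without EV replicate 1 (0.108), EV replicate 2 (0.168) or EK replicate 2 (0.0643).

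LYN, IRAK3 and HERC5 also fell. LYN, a SRC-family kinase that acts directly below the B-cell receptor, was at 4.43 and 3.95 CPM in WT, 3.55 and 3.02 CPM in EK, and 13.6 and 8.48 CPM in EV. The EV replicates differed from each other, yet both lay above all 4 libraries with added NSD2, and the change was -1.56 ± 0.23 (adjusted p = 0.0305). IRAK3, which restrains signalling from Toll-like receptors, was at 4.32 and 4.08 CPM in WT, 3.80 and 4.80 CPM in EK, and 11.4 and 12.9 CPM in EV, a change of -1.52 ± 0.15 (adjusted p = 0.00497). HERC5, an interferon-induced ligase for the ubiquitin-like protein ISG15, chosen after its values were seen, fell to 74.8 ± 1.30 CPM with added NSD2, against 120 ± 0.492 CPM with EV (-0.68 ± 0.07, adjusted p = 0.00789). LYN was called only in the fit without EV replicate 2 among those that left out 1 library, with adjusted p = 0.281 without EV replicate 1, 0.0532 and 0.102 without EK replicates 1 and 2, and 0.0936 and 0.0711 without WT replicates 1 and 2. IRAK3 lost its call without EV replicate 2 (0.0726), and HERC5 without EV replicate 1 (0.108) or EV replicate 2 (0.113).

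RNF182, an E3 ubiquitin ligase, was at 6.68 and 5.42 CPM in WT, 6.13 and 6.48 CPM in EK, and 18.7 and 16.9 CPM in EV, a change of -1.53 ± 0.13 (adjusted p = 0.00337) that held in all 6 fits. SEMA3A, a secreted semaphorin that repels axons, was at 4.28 and 3.66 CPM in WT, 3.80 and 4.22 CPM in EK, and 11.6 and 9.75 CPM in EV (-1.42 ± 0.15, adjusted p = 0.0073). The axon guidance genes that changed therefore went both ways, with the receptors ROBO1 and PLXNA2 higher and the ligand SEMA3A lower. MGST2, a microsomal glutathione transferase, averaged 2.68 ± 0.395 CPM with added NSD2 and 7.21 ± 0.695 CPM with EV (-1.42 ± 0.18, adjusted p = 0.0189). KIAA0226L (RUBCNL), a regulator of autophagosome maturation, averaged 10.1 ± 1.74 CPM with added NSD2 and 27.3 ± 2.70 CPM with EV (-1.44 ± 0.17, adjusted p = 0.0107). ARHGAP18, a GTPase-activating protein, averaged 3.68 ± 0.662 CPM with added NSD2 and 9.18 ± 0.839 CPM with EV (-1.32 ± 0.19, adjusted p = 0.0287). RHOBTB3 averaged 24.3 ± 3.11 CPM with added NSD2 and 56.0 ± 7.65 CPM with EV (-1.21 ± 0.14, adjusted p = 0.00974). OCIAD2 averaged 2.91 ± 0.340 CPM with added NSD2 and 6.44 ± 0.732 CPM with EV (adjusted p = 0.0364). PID1, an adaptor of lipoprotein receptors, averaged 18.1 ± 2.01 CPM with added NSD2 and 38.5 ± 11.1 CPM with EV (adjusted p = 0.0447).

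Several of these falls lost their call when 1 library was left out. Their log2 fold changes ran from -1.25 to -1.02 in OCIAD2, from -1.52 to -1.32 in MGST2 and from -1.35 to -0.76 in PID1. A call can also be lost because fewer libraries remain, which was not told apart here from reliance on 1 library. Without EV replicate 1 the calls of SEMA3A (adjusted p = 0.108), MGST2 (0.212), KIAA0226L (0.118), ARHGAP18 (0.281), OCIAD2 (0.393) and PID1 (0.334) were lost. Without EV replicate 2 those of MGST2 (0.119), KIAA0226L (0.0599), ARHGAP18 (0.168), RHOBTB3 (0.113) and OCIAD2 (0.195) were lost. Without EK replicate 2 those of MGST2 (0.0861), KIAA0226L (0.0571), ARHGAP18 (0.09), OCIAD2 (0.136) and PID1 (0.148) were lost. Leaving out EK replicate 1 ended the calls of OCIAD2 (0.0564) and PID1 (0.0697), WT replicate 1 those of MGST2 (0.0932), OCIAD2 (0.093) and PID1 (0.123), and WT replicate 2 those of ARHGAP18 (0.0763), OCIAD2 (0.0967) and PID1 (0.0958). Over all 98 genes, 17 were called in every one of the 6 fits, 14 of them higher and 3 lower, and no gene changed direction in any.

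**Figure D3:**
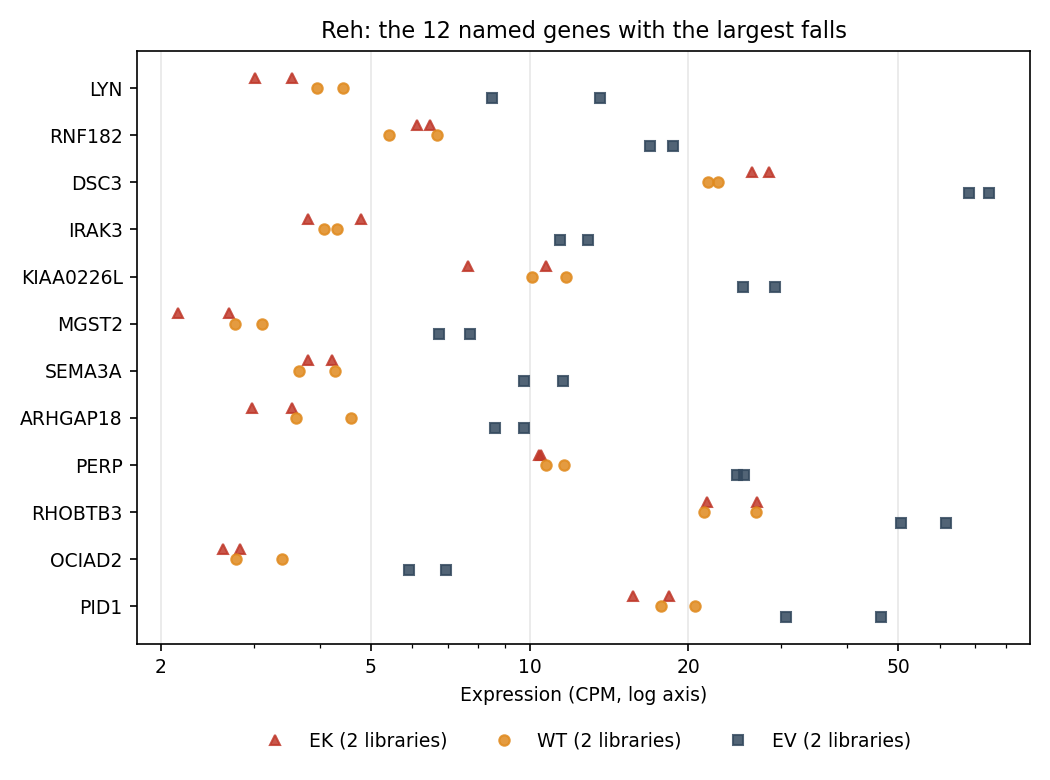
Level in each Reh library (CPM, log axis) of the 12 genes that fell most among those the naming rule admits. Triangles are EK, circles WT and squares EV, with 2 libraries each, and the 2 EV squares lie right of the other 4 points in every gene.

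The sign of the change against EV was the same for WT and EK in all 98 genes, which the choice of genes on the pooled libraries and the shared EV libraries fix in large part, beside 66.1% of all genes tested. The absolute difference between their log2 fold changes had a median of 0.15 over the 98 genes, and it was over 0.5 in 4. Set directly against each other, EK and WT differed at an unadjusted p under 0.05 in 3 of the 98, beside 1.63% (260) of all genes tested, and edgeR called none of the 98, or of all genes, after adjustment. With the replicate block, an alternative chosen after seeing the data, edgeR called 71 of 15972 genes between EK and WT. Of the 98, 1 was among them, ZNF536. In that fit 7 of the 98 had an unadjusted p under 0.05 between EK and WT, beside 12.8% (2051) of all genes tested. The gap was widest in ERBB4, a receptor tyrosine kinase for neuregulins, at 0.0369 and 0.0420 CPM in WT, 0.169 and 0.146 CPM in EK, and 0.977 and 1.24 CPM in EV. Its log2 change against EV was -4.66 in WT and -2.79 in EK, and the pooled change was -3.44 ± 0.48 (adjusted p = 0.0266). The ERBB4 values rest on few reads, and among fits that left out 1 library it was called only without EK replicate 1. The adjusted p was 0.135 and 0.222 without EV replicates 1 and 2, 0.0854 without EK replicate 2, and 0.0936 and 0.0631 without WT replicates 1 and 2. For ZNF536 the changes were 3.83 in WT and 2.72 in EK, with an unadjusted p of 0.0013 between them, and for SOHLH2 they were 1.85 in WT and 2.40 in EK.

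Of 30 gene lists chosen for this tissue and enzyme, 9 had a called member, and 18 with the replicate block. Among 18 tested genes of desmosomes and cell junctions, 1 rose (MAGI1) and 3 fell (DSC3, DSG2 and PERP), with a list median of -0.06. With the block 2 were higher and 4 lower, TJP1 and DSC2 joining them. Among 21 genes of axon guidance and neural adhesion, 2 rose (ROBO1 and PLXNA2) and 1 fell (SEMA3A), with a median of -0.01. With the block 6 were higher and 3 lower, adding EFNB2, PLXNA1, NEO1 and NRP2 to those higher, and NRP1 and SLIT2 to those lower. NRP1, a semaphorin co-receptor, averaged 5.36 ± 0.992 CPM with added NSD2 and 11.5 ± 1.89 CPM with EV without passing (adjusted p = 0.0652, and 0.00147 with the block), and its relative NRP2 averaged 3.76 ± 0.689 CPM with added NSD2 and 1.19 ± 0.600 CPM with EV (adjusted p = 0.0978, and 0.000835 with the block). Of 16 collagens, laminins and matrix proteases, COL6A1, a chain of collagen VI, rose to 1.46 ± 0.258 CPM with added NSD2, against 0.149 ± 0.108 CPM with EV (3.26 ± 0.44, adjusted p = 0.0252). Among fits that left out 1 library it was called only without EK replicate 1, with adjusted p = 0.0733 and 0.189 without EV replicates 1 and 2, 0.0939 without EK replicate 2, and 0.0936 and 0.0583 without WT replicates 1 and 2. Leaving out EV replicate 1 gave it a log2 change of 4.23, and leaving out EV replicate 2 one of 2.67. The median of the list was 0.04, and with the block 2 members were higher (COL6A1 and COL18A1) and 3 lower (LAMA3, LAMC1 and SPARC). These lists stand beside 0.614% of all genes called (3.75% with the block) and a median of 0.0068 over all genes.

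Lists of drug handling and DNA repair held a single called member each. Of 22 genes of thiopurine, cytarabine and antifolate handling DPYD alone was called, an enzyme that acts on pyrimidine bases rather than on the drugs in the name of the list, and the median was 0.02. SAMHD1, which degrades deoxynucleotides and the active form of cytarabine, averaged 17.6 ± 0.701 CPM with added NSD2 and 12.4 ± 0.405 CPM with EV without passing (adjusted p = 0.124, and 0.0139 with the block). Of 23 genes of DNA repair and damage signalling LIG4 alone was called (median -0.03). Of 26 enzymes and readers of lysine 36 and lysine 27 methylation on histone H3, NSD2 alone was called (median -0.02), and of 24 p53 targets PERP alone, as lower (median -0.0027), with SESN1 (-0.73) joining it under the block. Neither the 17 tested genes of the glucocorticoid receptor and its response (median -0.01) nor the 13 of the BCL2 family (median 0.0047) had a called member. With the block each had 1, DUSP1 lower and HRK, a BH3-only promoter of cell death, higher (0.51). DUSP1, a phosphatase induced by glucocorticoids, averaged 345 ± 11.2 CPM with added NSD2 and 436 ± 2.36 CPM with EV (adjusted p = 0.145, and 0.0114 with the block).

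Among signalling lists, 1 of 19 genes of MAPK feedback and the immediate early response rose, ETV5, with 15 of the 19 positive and a median of 0.30. That median was 0.75 without EV replicate 1 and -0.13 without EV replicate 2. With the block 3 were higher, CCND1 (1.46) and PHLDA1 (0.53) as well as ETV5. Of 18 receptor tyrosine kinases ERBB4 fell (median -0.02). None of 23 JAK and STAT feedback genes was called (median -0.03), the closest being BCL6, a repressor of the germinal centre, at 232 ± 6.99 CPM with added NSD2 and 169 ± 5.38 CPM with EV (adjusted p = 0.0588). With the block BCL6 was called higher (adjusted p = 0.00147), and the cytokine feedback inhibitor SOCS2 (-0.83), the kinase JAK1 (-0.29) and the transcription factor STAT5A (-0.55) lower. Genes of B-lymphoid identity (23 tested, median 0.07), stem and progenitor genes (15, -0.12) and integrins, selectins and homing receptors (17, 0.01) had none either. With the block there were 3 lower among stem and progenitor genes, PROM1 and BMI1 among them, and 2 higher (ITGA6 and S1PR2) and 1 lower (ITGB1) among homing receptors, but still none of B-lymphoid identity.

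No member was called in the remaining lists, apart from those that the block added, SLC7A11 (1.28) and SLC7A5 (0.34) of the integrated stress response, XBP1 (0.32) of the unfolded protein response, and the markers NKG7 and MPO. The lists were S phase (25 tested, median -0.07), MYC and ribosome biogenesis (25, 0.10), G2 and M phase (25, -0.00095), replication-dependent histones (19, -0.12), interferon response (27, -0.01), integrated stress response (19, 0.02) and unfolded protein response (19, 0.02). Cholesterol synthesis and uptake (22, -0.10), glycolysis and hypoxia response (26, -0.07), class II antigen presentation (16, -0.04) and mitochondrially encoded transcripts (13, 0.02) complete them, along with markers of T and NK cells (5, 0.38), myeloid cells (5, 0.04), erythroid and megakaryocytic cells (3, 0.04) and stromal and epithelial cells (6, 0.17). The sign of a list median was kept in all 6 fits that left out 1 library for 7 of the 30 lists and changed in 23. For the histones it was 0.13 without EV replicate 1 and -0.35 without EV replicate 2, and for MYC and ribosome biogenesis 0.25 and -0.06.

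**Figure D4:**
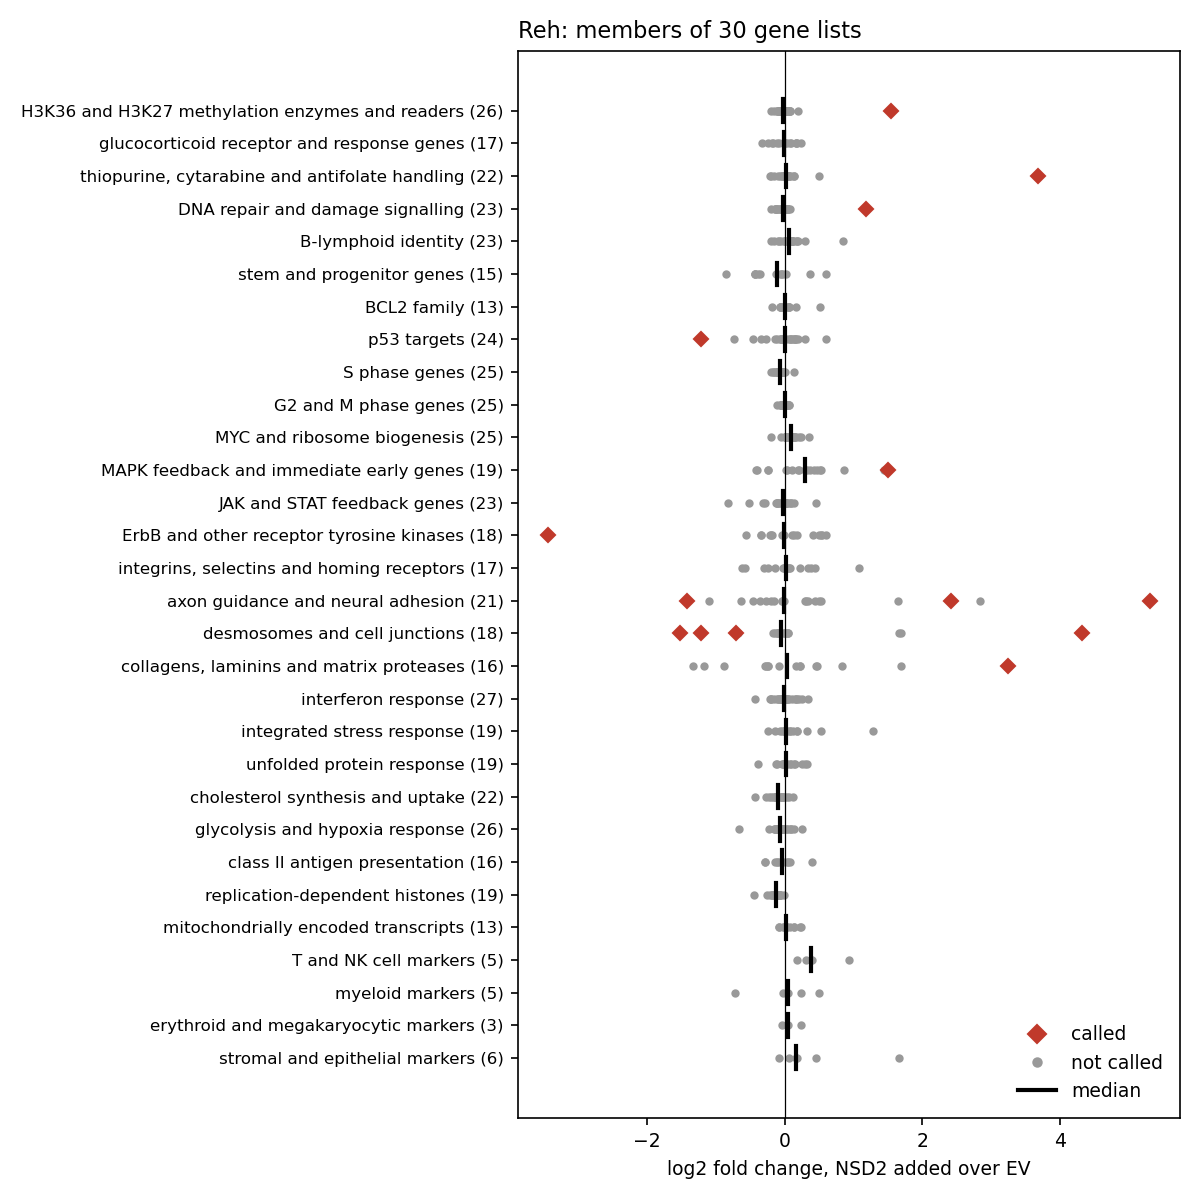
Log2 fold change, added NSD2 over EV, of each tested member of the 30 lists (number tested in brackets), with called members as diamonds, others as dots and the list median as a bar. Members called without the replicate block are few and scattered over 9 lists, and the medians run from -0.12 to 0.38. The farthest point on the right, PLXNA2, has 3 EV reads and an imprecise fold.

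Some called genes were close neighbours by gene order in the RefSeq annotation. On chromosome 1, SIPA1L2 (2.79 ± 0.612 CPM with added NSD2 and 0.241 ± 0.0214 CPM with EV), PCNXL2 and MLK4 (10.9 ± 1.27 CPM with added NSD2 and 3.47 ± 0.620 CPM with EV) all rose. PCNXL2 and MLK4 are adjacent, while MAP10 and NTPCR, which lie between SIPA1L2 and PCNXL2, had log2 fold changes of 0.24 and 0.05 and were not called. On chromosome 3, MAGI1 and LRIG1, a membrane protein that restrains ErbB receptors, both rose and are separated by SLC25A26, which did not pass (-0.03). LRIG1 averaged 168 ± 22.9 CPM with added NSD2 and 91.0 ± 5.01 CPM with EV (0.88 ± 0.13, adjusted p = 0.0363), and lost its call without EV replicate 1 (0.334), EV replicate 2 (0.222), EK replicate 2 (0.0776) or WT replicate 2 (0.0793). DSC3 and DSG2, which fell, lie in the cadherin cluster of chromosome 18, where DSC1, DSG1, DSG3 and DSG4 between them were below the low-count filter. Among 92 called coding genes placed by gene order, 9 pairs had at most 9 coding genes between them, and some pairs shared a gene. In 6 pairs both genes moved the same way and in 3 they moved in opposite directions. On chromosome 4, for example, PCDH18 rose and MGST2 fell. How often other tested genes form such pairs was not counted, so the pairs are a description only. SIPA1L2, MLK4 and LRIG1 were chosen after their values were seen, and without EV replicate 1 the calls of SIPA1L2 (0.0851) and MLK4 (0.0565) were lost, as they were without EV replicate 2 (0.0764 and 0.113).

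The closest comparison in the study is the same pair of vectors in 697, another B-ALL line, with 6 libraries with added NSD2 and 3 with EV. There the values are counts normalized by the authors, tested with limma on log2(value + 1), a scale that understates changes of low genes, and levels cannot be set against the CPM of Reh. In 697, 48 genes were called higher (0.294%) and 2 lower (0.0123%) of 16310 tested, with 771 at an unadjusted p under 0.05. When same-numbered libraries were treated as pairs in this line (the replicate block), 143 were called higher (0.877%) and 135 lower (0.828%). Of the 65 genes that rose in Reh, 45 could be tested in 697 and 3 were called higher there (6.67%), which is 7.89% of the 38 genes called higher in 697 that could be tested in Reh. They were NSD2, SCN8A and PCNXL2. NSD2 is the gene added in both lines, so its place among them is set by the design and is no sign of a shared response. SCN8A averaged 45.1 ± 19.8 normalized counts with added NSD2 and 4.18 ± 1.17 with EV in 697 (3.03 ± 0.43, limma adjusted p = 0.00984), and PCNXL2 averaged 109 ± 30.3 with added NSD2 and 40.8 ± 10.1 with EV (1.40 ± 0.24, adjusted p = 0.0411). With the block, TSPAN12, PLXNA2, ZNF521 and LIG4 joined these 3 genes, making 7 with NSD2 counted. In the same fit NELL1, CASP1 and LRIG1, which rose in Reh, were called lower.

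Of the 33 genes that fell in Reh, 22 could be tested in 697 and none was called lower by limma, while 3 were with the replicate block, IRAK3, ARHGAP18 and PARP8. The median 697 change was 0.03 over the 45 genes that rose in Reh and -0.21 over the 22 that fell, beside -0.01 over all genes, with 25 of the 45 positive and 15 of the 22 negative. Genes with the largest rises in Reh differed widely in their level in 697 with EV, where MAGI1, ROBO1 and DPYD were abundant. MAGI1 averaged 9129 ± 1096 with added NSD2 and 9995 ± 1234 with EV (-0.13 ± 0.12). ROBO1 averaged 4370 ± 494 with added NSD2 and 4032 ± 340 with EV (0.11 ± 0.11), and DPYD 994 ± 136 with added NSD2 and 990 ± 23.6 with EV (-0.01 ± 0.13). In contrast MB21D2 averaged 0.482 ± 0.830 with added NSD2 and 0.670 ± 1.16 with EV in 697, too low to be tested there. FRG2C averaged 24.5 ± 25.3 with added NSD2 and 1.34 ± 1.62 with EV (2.97 ± 0.87, limma adjusted p = 0.421). Whether the response of any of these genes differs between the lines, or goes with its level in 697, was not tested. In 697, NSD2 rose to 89488 ± 14512 normalized counts with added NSD2, against 9767 ± 1771 with EV (3.20 ± 0.15, adjusted p = 3.31e-06), beside 1.54 in Reh. NEO1, which binds netrins and has a log2 change of 4.11 ± 0.21 in 697, was at 71.5 ± 3.20 CPM with added NSD2 and 57.6 ± 0.816 CPM with EV in Reh (0.31 ± 0.08, adjusted p = 0.239, and 0.0283 with the block).

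**Figure D5:**
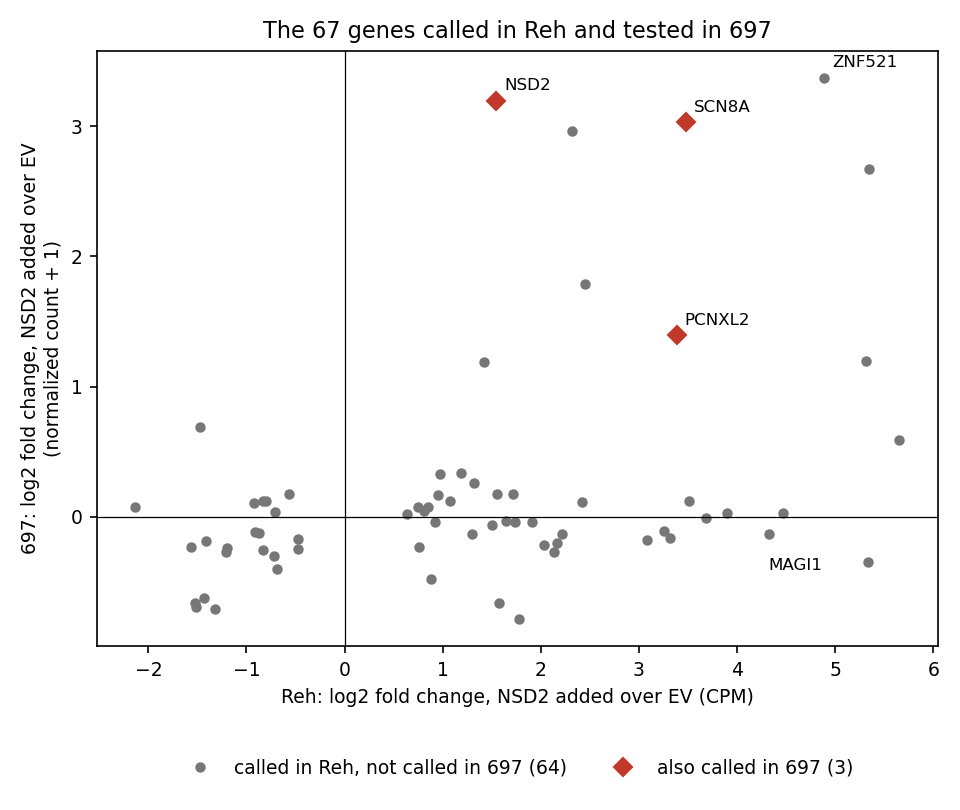
Log2 fold change, added NSD2 over EV, in 697 (log2 of normalized count + 1, vertical axis) against that in Reh (CPM, horizontal axis) for the 67 genes called in Reh and tested in 697. Diamonds mark the 3 genes also called in 697, which include the added NSD2. Most other points, MAGI1 among them, lie near 0 on the vertical axis.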

How the data were processed

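RNA of the 6 Reh libraries was made into stranded, ribosome-depleted libraries and read as 54 base reads, per the labels' protocols. Trimmomatic, STAR, featureCounts and hg19 are named in the submitters' processing notes, which list no versions. For Reh the deposited values are raw read counts per gene, used here, and for 697 they are the authors' normalized counts (a signal per library, read counts divided by a factor), whose depth per library was not used. Raw counts listed by Ensembl identifier were named by identical reads in the authors' normalized Reh values (tolerance 0.001 reads), which gave a name to each of the 15793 genes that had 50 or more reads. Symbols on both sides were the same for 13197 of 13247. Across the Reh tables, 6 columns match no sample and were not used. Replicate libraries were not duplicates, with a chi-square per degree of freedom of 27.8 to 41.7.

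The test for counts was that of edgeR 4.0.16, run in R 4.3.3 (filterByExpr, TMM, robust glmQLFit, 1 factor of added NSD2 against EV), and for 697 values that of limma 3.58.1 (trend) on log2(value + 1) for genes averaging at least 10. Both scripts were run on simulated data in which libraries varied independently of each other. That check cannot show how the tests behave where same-numbered libraries deviate together. Adjustment followed Benjamini and Hochberg. The SE of a Reh log2 fold change is its absolute value divided by the square root of the F statistic. It is therefore no estimate of spread apart from the p-value. Arms were also fitted as a 3-level factor. No label says what a replicate number marks, and pairing was read from the values. Same-numbered libraries of different arms deviated together in Reh in all 3 pairs of arms (r of 0.754 to 0.817 over 10716 genes) and in 697 in all 9 pairs (r of 0.505 to 0.807 over 12461 genes averaging at least 50 normalized counts). Folds from few reads used exact binomial intervals. Gene order and spans came from a GRCh38 RefSeq table. Tables and figures were made in Python 3.11.15 (pandas 2.3.3, numpy 2.4.6, matplotlib 3.10.9).

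Named genes were NSD2, the 12 highest and 12 lowest changes of genes called at 5 CPM or more in the higher group and no overlap, leaving out clone-like names and pseudogenes, the 6 with the smallest p, the 6 with the largest gap between EK and WT, up to 3 called members per list, and genes called alike in 697. Of these, 1 gene is not reported here. The comparison, lists and rules were chosen with earlier results of these data known. The alternatives tried were RLE factors, upper-quartile factors, DESeq2 1.42.0, other low-count filters, non-robust dispersions, the 3-level factor, each arm alone, the replicate number as a block, at least 2-fold changes, other settings for 697, and leaving out each library.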

Additional observations from a re-analysis of the deposited data

How the results depend on the processing

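The 98 called genes kept their direction under every alternative that tested them. Their number, 98 (65 higher, 33 lower), became 302 with DESeq2 (181 and 121), 407 without the low-count filter (218 and 189), 60 with the 3-level factor (42 and 18), 7 with EK alone against EV (6 and 1) and 8 with WT alone (7 and 1). Calls of at least 2-fold left 20 lower. RLE factors, upper-quartile factors, non-robust dispersions and the stricter filter gave 81 to 100. Leaving out 1 library gave 22 to 92 calls, 16 to 65 higher and 6 to 27 lower, lowest without EV replicate 1 (22) or EV replicate 2 (25), and 45, 46 and 52 without EK replicate 2, WT replicate 1 and WT replicate 2. Of 34 named genes other than NSD2, 12 were called in all 6 of these fits, and DESeq2 called all 34. NSD2 lost its call with EK alone (1.54, adjusted p = 0.0518). With the replicate number as a block, 599 genes were called in Reh (338 higher and 261 lower), all 98 among them. With the block the 0 genes called between EK and WT became 71, and 14 of the 30 lists had a number of called members that moved by over 1.5 times. In 697 the 50 calls became 278 with the block, 27 with a minimum of 50 and 30 to 45 with 1 library left out. The cause of these shifts was not tested.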

Other observations

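Further genes called in Reh, chosen after their values were seen, fell into the groups already described or into none. ACTL8, an actin-like protein of the testis, averaged 4.32 ± 1.02 CPM with added NSD2 and 0.242 ± 0.0835 CPM with EV, and it was called in all 6 fits that left out 1 library. PDE10A, a phosphodiesterase of cyclic nucleotides, averaged 8.09 ± 0.435 CPM with added NSD2 and 1.94 ± 0.302 CPM with EV and was likewise called in all 6. CC2D2A, a protein of the base of cilia, fell to 0.928 ± 0.0630 CPM with added NSD2, against 3.64 ± 0.634 CPM with EV, and TRH, the thyrotropin-releasing hormone, to 0.573 ± 0.125 CPM with added NSD2, against 2.52 ± 0.155 CPM with EV. CDKN2C, an inhibitor of cyclin-dependent kinases, fell to 98.9 ± 2.58 CPM with added NSD2, against 137 ± 2.34 CPM with EV (edgeR adjusted p = 0.039). Of the 6 fits that left out 1 library, CC2D2A was called in 5 (lost without EV replicate 2, adjusted p = 0.104) and TRH in 2 (adjusted p up to 0.119, without EV replicate 1). CDKN2C was called in 1, without EK replicate 1, with adjusted p up to 0.416 without EV replicate 1.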
